A study of Mus musculus with 16 samples.

Results

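The comparison set protrusions (Ps) against cell bodies (CB) in cells whose level of Apc had been lowered by siRNA. Its members were the 8 libraries that the sample labels give as siAPC, 4 of CB and 4 of Ps, out of 16 libraries in the series, and all 13015 RNAs of the deposited table were compared. The cells were NIH/3T3, an established line of mouse fibroblasts, which had been starved of serum and then plated for 2 h on filters with pores of 3.0 µm. Lysophosphatidic acid (LPA), a lipid that draws fibroblasts, was then given from below during 1 h before fixation in 0.3% paraformaldehyde for 10 min. The 4 siAPC CB libraries came from material above the filter and the 4 siAPC Ps libraries from material scraped from its underside. The other 8 libraries, siControl CB and siControl Ps, were prepared in the same way from cells that received a control siRNA, so starvation, LPA and fixation were shared by all groups. The model is 1 cell line with a partial knockdown by siRNA, and the study describes the 4 replicates of a fraction as independent, while the labels do not say whether they were separate cultures. The p-values below measure the spread between these libraries.

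Fibroblasts send RNAs to their protrusions by more than 1 route. Apc, the mouse gene of the adenomatous polyposis coli tumor suppressor, encodes a protein that binds microtubule ends and also binds RNA, and it is known for anchoring a group of mRNAs at the tips of protrusions. Other mRNAs, among them those of ribosomal proteins, reach protrusions without it, while mRNAs of secreted and membrane proteins are translated on the endoplasmic reticulum (ER), which is densest around the nucleus. The question here was which gene classes remained or became concentrated in each fraction once Apc was lowered.

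The siAPC libraries held from 14955340 to 20296087 reads in listed genes, and a gene with 3 reads, taken as the floor, stood between -2.63 and -2.09 on the log2 scale (counting error only). Apc was checked first. It stood at 0.54, 1.42, 1.02 and 0.75 log2 CPM (library-scaled CPM, a read's share of its library, on a log2 scale, with 0.5 reads added) in siAPC CB and at 1.63, 1.90, 1.87 and 1.33 in siAPC Ps, from 29 to 69 reads a library. That left 31.3% of the siControl level in CB and 27.9% in Ps (p = 0.0286 for either fraction by a two-sided exact permutation test, the lowest value that 4 against 4 libraries can give). Its own log2 ratio of Ps to CB was 0.75 (SE 0.25, adjusted p = 0.0159), but the fractions overlapped and the call was lost with replicate 1 of siAPC CB left out (0.62), with voom precision weights (0.76) and when scaled to total reads (0.59). All 14 markers on the fibroblast list were in the table, 4 of them collagens, and they summed to between 54968 and 58475 CPM in siAPC CB and between 28545 and 30387 in siAPC Ps, with 3 of the 14 higher in Ps and 8 in CB. Of the other lists, 3 of 8 epithelial markers (Cdh1, Krt8 and Krt14), 3 of 8 leukocyte markers and 1 of 5 endothelial markers were listed, and Epcam, Ptprc and Cdh5 were not among the listed genes. The epithelial markers summed to 421 to 426 CPM in siAPC CB and to 302 to 334 in siAPC Ps, and their part in the results was not tested. A list of 10 RNAs that stay in the nucleus, 5 of them in the table, summed to 470 to 637 CPM in siAPC CB and to 105 to 240 in siAPC Ps, so the ranges did not overlap, but 3 of the 5 were higher in CB (Malat1, Neat1 and Kcnq1ot1) and 2 in Ps (Mirg and Airn). In replicate 2 of each siAPC fraction, genes rich in GC stood lower than in the rest of the group (Spearman correlation -0.585 in CB and -0.645 in Ps over 10234 genes of 1 library each, a description). Trends of the opposite sign reached 0.536 in siAPC CB 3 and 0.503 in siAPC Ps 4. In these bulk libraries, more of an RNA in Ps cannot be told apart from less of all other RNAs there, nor fewer cells of a type from less RNA per cell.

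After Apc siRNA, 998 of 13015 RNAs passed as Ps-enriched and 657 as CB-enriched, which required more than a 2-fold change and an unadjusted limma p below 0.05. These are 7.67% and 5.05% of all RNAs, and every count of enriched members below is to be read against those shares. By the adjusted p (Benjamini-Hochberg over all RNAs, below 0.05) with no limit on size, 3877 RNAs (29.8%) lay higher in Ps and 4024 (30.9%) in CB, beside 3792 (29.1%) and 4058 (31.2%) in siControl. "Higher" is used below in that sense, and "enriched" in the sense of the fold rule. The median log2 ratio of Ps to CB over all RNAs was 0.01, so a class with a median near 0 was centered like the RNA population as a whole. The median does not give the spread of its members. Scaling to the total of listed reads moved that median to -0.14, a shift of -0.16, after which 35.3% of the RNAs that passed the adjusted test were higher in Ps, against 49.1% without it, and 697 RNAs were Ps-enriched and 1105 CB-enriched.

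**Figure D1:**
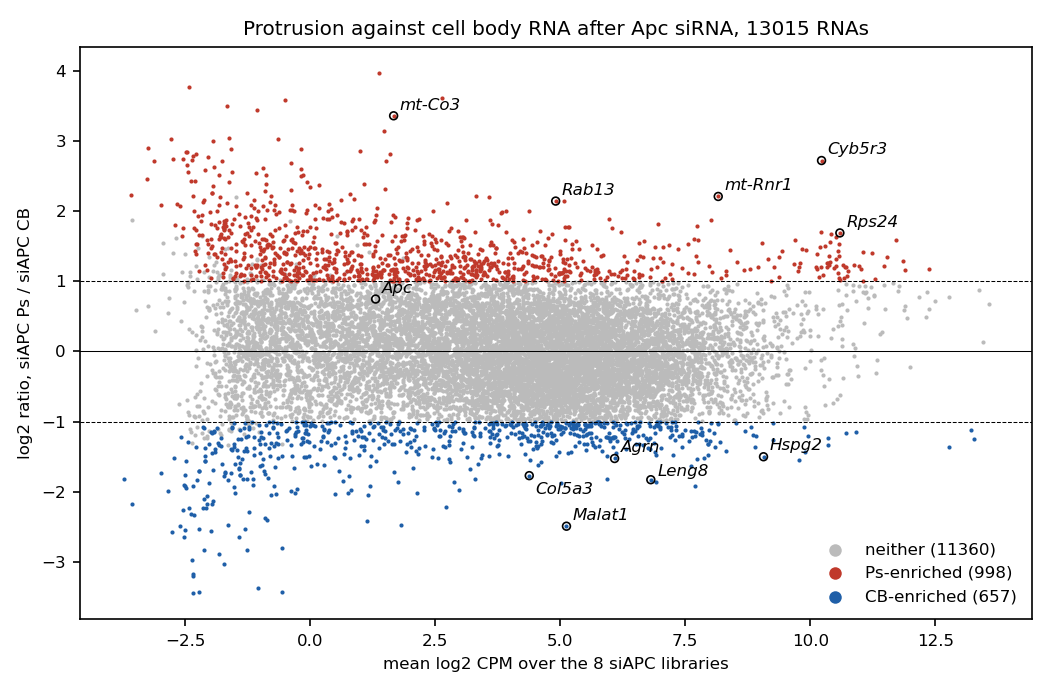
Each point is 1 of 13015 RNAs, with its mean log2 CPM over the 8 siAPC libraries on the x axis and its log2 ratio of siAPC Ps to siAPC CB on the y axis. The dashed lines mark a fold change of 2, and the 998 Ps-enriched RNAs (red) and 657 CB-enriched RNAs (blue) lie above and below them, with Cyb5r3 at 2.73 and Malat1 at -2.50.

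Among the RNAs with a mean log2 CPM of at least 3, predicted genes, pseudogenes and small RNAs left out, the one with the highest ratio in siAPC was Cyb5r3, which encodes a cytochrome b5 reductase (chr15:83153494-83172592, minus strand, GRCm38). It stood at 9.0, 8.92, 8.75 and 8.78 log2 CPM in siAPC CB and at 11.58, 11.36, 11.75 and 11.66 in siAPC Ps. The fractions were far apart, with a log2 ratio of 2.73 (SE 0.09, adjusted p = 4.93e-13), which is 6.62-fold. Rab13, which encodes a small GTPase of vesicle traffic (chr3:90213695-90226385, plus strand), stood at 3.96, 3.75, 3.81 and 3.82 in CB and at 5.98, 5.95, 6.01 and 6.0 in Ps, a log2 ratio of 2.15 (SE 0.10, adjusted p = 3.89e-11). Its Ps libraries lay close together and well above the CB libraries. The remaining 8 of the 10 highest were mt-Rnr1, the small mitochondrial ribosomal RNA (2.21 ± 0.16 SE), Sh3bgrl (2.14 ± 0.24), Cplx2, a complexin (2.01 ± 0.11), Cops2, a subunit of the COP9 signalosome (2.0 ± 0.32), 1810022K09Rik (1.99 ± 0.14), 5730409E04Rik (1.89 ± 0.07), Npm1, nucleophosmin (1.88 ± 0.23), and Rpl22l1, a ribosomal protein (1.83 ± 0.15). The choice of these 10 required that the fractions did not overlap, which held for 3664 RNAs (28.2%) with Ps above CB. With GC and length trends removed mt-Rnr1 stood at 0.79, 1810022K09Rik at 0.83, Npm1 at 1.22 and Sh3bgrl at 1.39.

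At the other end, Malat1, a long noncoding RNA held in nuclear speckles (chr19:5795690-5802672, minus strand), had the lowest ratio among the same RNAs. It stood at 5.99, 6.94, 6.58 and 5.97 log2 CPM in siAPC CB and at 3.95, 4.46, 3.61 and 3.48 in siAPC Ps. Its log2 ratio was -2.50 (SE 0.35, adjusted p = 6.29e-06), or 5.64-fold higher in CB. The next were Rsrp1 (-1.88 ± 0.16 SE), PCDHGB6, listed under that name and not matched to the annotation (-1.86 ± 0.12), and Leng8 (-1.83 ± 0.07). Of the others among the 10 lowest, 3 were fibrillar or associated collagens, Col11a2 (-1.81 ± 0.13), Col5a3 (-1.77 ± 0.12) and Col16a1 (-1.64 ± 0.10), and 1 was a semaphorin receptor, Plxna3 (-1.62 ± 0.08). Nbeal2 (-1.68 ± 0.14) and Dennd6b (-1.60 ± 0.11) completed the 10. With GC and length trends removed Col11a2 stood at -1.19, Col5a3 at -1.14, Col16a1 at -1.03 and Nbeal2 at -1.04. These 10 were chosen under the same condition, and CB lay above Ps without overlap for 3960 RNAs (30.4%) of the table.

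**Figure D2:**
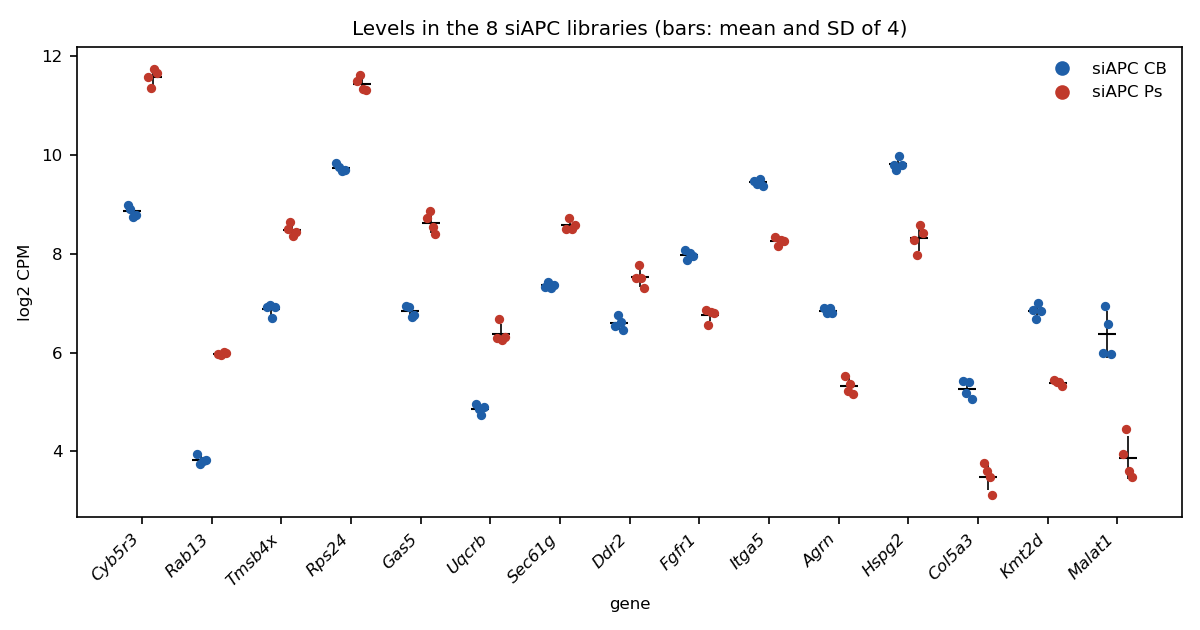
Log2 CPM of 15 named genes (x axis) in the 4 siAPC CB libraries (blue) and the 4 siAPC Ps libraries (red), with the mean and SD of each 4 as black bars. In none of the 15 genes do the libraries of the fractions overlap, from Cyb5r3 at the left, higher in Ps by 2.73, to Malat1 at the right, at -2.50 on the log2 scale.

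Next came the RNAs named by the study, localized or diffuse. All 20 RNAs on the study's list under cellular assembly were still higher in Ps in siAPC, and 12 of them were Ps-enriched. Their median log2 ratio was 1.16 in siAPC and 1.61 in siControl, where all 20 were Ps-enriched. The study chose this list on these libraries, by a lower ratio after Apc knockdown. Its counts and its lower median are therefore not independent evidence of a direction. Kank2, which encodes an adaptor at focal adhesions, stood at 6.60, 6.60, 6.65 and 6.62 in siAPC CB and at 7.94, 7.89, 8.27 and 8.25 in siAPC Ps, a log2 ratio of 1.47 (SE 0.08, adjusted p = 1.12e-10) against 2.10 in siControl. Pkp4, a plakophilin of cell junctions, had a log2 ratio of 1.23 (SE 0.07, adjusted p = 2.32e-10) against 1.59. Ddr2, a collagen receptor, had 0.93 (SE 0.14, adjusted p = 1.86e-05) against 1.33. Kif1c, a kinesin motor, had 1.33 (SE 0.10, adjusted p = 3.97e-09) against 2.08, and Net1, an activator of RhoA, had 1.64 (SE 0.12, adjusted p = 2.12e-09) against 2.42. The least enriched of the 20 in siAPC was Gab2, an adaptor of growth factor receptors, with 0.57 (SE 0.08, adjusted p = 7.87e-06). The diffuse RNAs of the study were also higher in Ps by the test, with 0.55 (SE 0.07, adjusted p = 6.76e-07) for Arpc3, a subunit of the Arp2/3 complex, and 0.42 (SE 0.06, adjusted p = 7.62e-06) for Rhoa, below the fold limit in each case. With the trends of GC content and transcript length removed, Arpc3 stood at -0.04 and no longer passed.

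The test of the difference itself, the interaction of fraction and siRNA, was past an adjusted p of 0.05 for 3 RNAs (0.0231% of those tested), all with a lower Ps/CB ratio in siAPC. By limma these were Cyb5r3, with a difference of -0.78 (SE 0.13, adjusted p = 0.0432), Scd1, a desaturase of fatty acids, with -0.64 (SE 0.10, adjusted p = 0.0432), and 5730409E04Rik, with -0.63 (SE 0.10, adjusted p = 0.0432). No RNA passed in the other direction, and at an unadjusted p below 0.05 the counts were 223 lower and 269 higher (1.71% and 2.07%), but 57 and 1320 when scaled to total reads. The calls lay close to the threshold. With libraries left out 1 at a time, Cyb5r3 and 5730409E04Rik missed the threshold in 13 of 16 fits and Scd1 in 12 of 16. Over all 24 alternatives the differences kept their sign, from -0.84 to -0.49 for Cyb5r3, from -0.71 to -0.50 for Scd1 and from -0.68 to -0.49 for 5730409E04Rik. With the replicate block the adjusted p was 0.107 for Cyb5r3 and for 5730409E04Rik, and 0.034 for Scd1. Among the 20 listed RNAs all 20 differences were below 0, and 17 had an unadjusted p below 0.05. The study chose them by this difference in these same libraries, so these counts are not independent evidence of it. Among RNAs enriched in a fraction under either siRNA, with a mean of at least 1 and an unadjusted interaction p below 0.01, the most negative differences beyond Cyb5r3 were those of Net1 at -0.77, Kif1c at -0.75, Cenpu at -0.73 and Cenpb, a centromere protein, at -0.72, with adjusted p from 0.133 to 0.981. Under the same limits the 5 most positive were those of Cercam at 1.27, Tnfrsf25 at 0.94, 2810008D09Rik at 0.88, 2900052L18Rik at 0.78 and Duox2 at 0.70, with adjusted p from 0.145 to 0.981. In siControl Ps, Cercam had only 4 to 19 reads a library, 2900052L18Rik 13 to 26 and Duox2 16 to 26.

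**Figure D3:**
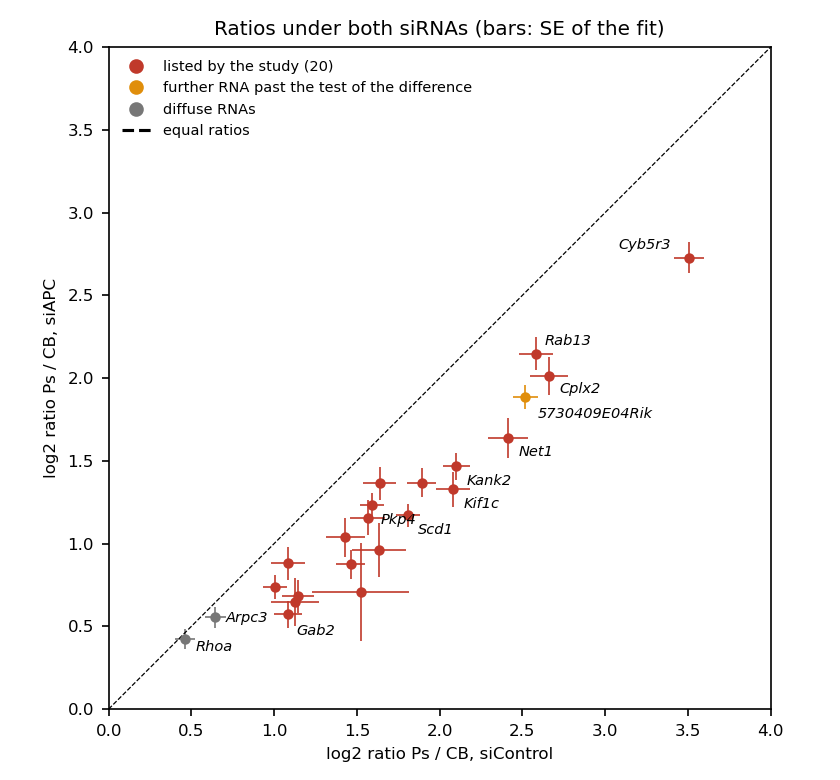
Log2 ratio of Ps to CB in siControl (x axis) and in siAPC (y axis) for the 20 RNAs the study lists (red), for 5730409E04Rik (orange) and for the diffuse RNAs Arpc3 and Rhoa (gray), with the SE of the limma fit as bars and equal ratios as a dashed line. All 20 listed RNAs lie above 0 on the y axis, from Gab2 at 0.57 to Cyb5r3 at 2.73, and below the dashed line. The study chose them by a lower ratio in siAPC, so their side of that line follows from the choice.

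The mRNAs of cytoplasmic ribosomal proteins (r-proteins) were concentrated in Ps after Apc siRNA almost as a whole class. Of 83 measured r-protein mRNAs, 80 were higher in Ps and 52 were Ps-enriched. Their median log2 ratio was 1.18, which is 2.27-fold, and the medians in the 4 same-numbered pairs of libraries ran only from 1.14 to 1.2. In siControl the median was 1.27. The difference between the siRNAs was below 0 for 80 of the 83, beside 6367 of 13015 RNAs in all, and 0 of the 83 had an unadjusted p below 0.05 for it in either direction. The median difference of the class was -0.10. Scaling to total reads moved the median difference over all RNAs from 0.005 to 0.15, so the sign of so small a difference depends on the scaling. Rps24 stood at 9.85, 9.75, 9.68 and 9.70 log2 CPM in siAPC CB and at 11.49, 11.61, 11.33 and 11.32 in siAPC Ps, a log2 ratio of 1.69 (SE 0.11, adjusted p = 4.81e-10). Rpl21 (1.71 ± 0.11 SE) and Rpl22l1 (1.83 ± 0.15) were the other members among the 3 highest. With GC and length trends removed the class median was 0.75, and with quantile normalization it was 0.61.

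R-protein mRNAs are known for a terminal oligopyrimidine (TOP) start, a C followed by an unbroken run of C and T, through which their translation is controlled. The starts annotated by RefSeq (GRCm38.p6) were therefore read for a C at the first base of the RNA followed by at least 4 bases that are each C or T, on the strand of the gene only. Of 83 r-protein genes 62 had a start in the table, and 15 (24.2%) held this run at the annotated base, against 258 of 8766 protein-coding genes (2.94%). Of the Ps-enriched protein-coding genes 23 of 446 (5.16%) held it, and without the r-proteins 13 of 408 (3.19%), while of the CB-enriched ones 10 of 426 (2.35%) did. Allowing the run to begin within 5 bases of the annotated start gave 50% of r-proteins and 23.7% of all protein-coding genes, so the shares depended on the exact start. The sequences below run from 10 bases before the annotated start to 20 bases from it, with the run in capitals, and show r-protein genes that were all higher in Ps in siAPC. They lie at chr4:86857348-86857377 (Rps6, minus strand), chr2:39005112-39005141 (Rpl35, minus), chr11:114668570-114668599 (Rpl38, plus), chr17:27635225-27635254 (Rps10, minus) and chr19:6057937-6057966 (Fau, plus).
Rps6: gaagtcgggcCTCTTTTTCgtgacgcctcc
Rpl35: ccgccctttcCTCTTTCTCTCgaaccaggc
Rpl38: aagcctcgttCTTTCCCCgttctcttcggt
Rps10: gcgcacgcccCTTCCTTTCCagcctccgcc
Fau: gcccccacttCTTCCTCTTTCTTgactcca
The log2 ratios were 1.22 for Rps6, 1.21 for Rpl35, 1.24 for Rpl38, 0.86 for Rps10 and 0.87 for Fau. The longest of these runs, 13 bases in Fau, did not go with the highest ratio.

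Rab13 and the r-protein gene Rps27 begin head to head on chromosome 3, with annotated starts 67 bases apart on opposite strands. They are shown together because both RNAs were Ps-enriched in siAPC, from 1 shared stretch of DNA. The windows lie at chr3:90213629-90213658 (Rps27, minus strand) and chr3:90213705-90213734 (Rab13, plus strand).
Rps27: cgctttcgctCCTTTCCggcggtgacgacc
Rab13: gtgttgcttcgccatcttcggaaggtcttc
Rps27 has the run of pyrimidines at its start and Rab13 does not. In siAPC the log2 ratio of Rps27 was 1.21 (SE 0.10) and that of Rab13 was 2.15 (SE 0.10). The difference from siControl was -0.07 for Rps27 (unadjusted p = 0.617) and -0.43 for Rab13 (unadjusted p = 0.00688), and neither passed after adjustment.

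Other parts of the translation machinery leaned the same way. Of 63 translation initiation and elongation factors 44 were higher in Ps and 3 in CB, with a median log2 ratio of 0.51 (pairs 0.46 to 0.52). Eif2s2, the beta subunit of eIF2, reached 1.77 (SE 0.22, adjusted p = 1.4e-06), and Eif3e, a subunit of eIF3, reached 1.59 (SE 0.12, adjusted p = 3.05e-09). The members on the CB side were led by Eif2ak3, an ER membrane kinase that phosphorylates eIF2 (-1.2, SE 0.09, adjusted p = 1.62e-09), and by the scaffold Eif4g1 (-0.78, SE 0.08, adjusted p = 1.35e-07). The host genes of small nucleolar RNAs, many of which also have TOP starts, were higher in Ps in 9 of 11 cases (median 0.76). Gas5, a noncoding host RNA (chr1:161034422-161038539, plus strand), stood at 6.94, 6.93, 6.72 and 6.77 in siAPC CB and at 8.72, 8.86, 8.54 and 8.40 in siAPC Ps, a log2 ratio of 1.79 (SE 0.14, adjusted p = 3.17e-09). Snhg6 had 0.99 (SE 0.14, adjusted p = 7.2e-06), but -0.18 with GC and length trends removed, and Snhg3 was the member on the CB side with -0.50 (SE 0.16, adjusted p = 0.0135), a call lost without replicate 3 of siAPC Ps (-0.34), and -1.76 with the trends removed. With those trends removed the median of the hosts was 0.12 (0.86 under quantile normalization) and that of the factors 0.46, with Eif3e at 0.94 and Eif4g1 at -0.30.

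Many RNAs of mitochondrial proteins were higher in Ps, though not those of the carrier family as a class. Reads of mitochondrial genes made up 2.55% ± 0.316 (SD, n = 4) of siAPC Ps libraries and 1.52% ± 0.109 of siAPC CB libraries, with ranges of 2.18% to 2.86% and 1.37% to 1.63% that did not overlap. Of 82 nuclear genes of the respiratory chain 74 were higher in Ps and 1 in CB, with a median log2 ratio of 0.63 (pairs 0.60 to 0.70), or 0.21 with GC and length trends removed. Uqcrb, a subunit of complex III, stood at 4.97, 4.86, 4.74 and 4.90 in siAPC CB and at 6.29, 6.68, 6.26 and 6.31 in siAPC Ps, a log2 ratio of 1.52 (SE 0.10, adjusted p = 1.01e-09) that went to 0.09 with those trends removed and no longer passed. Cox7b, of complex IV, had 1.49 (SE 0.09, adjusted p = 1.97e-10), or 0.47 with them removed. The 1 member on the CB side was Uqcrc1 with -0.21 (SE 0.08, adjusted p = 0.0408), a call that was lost with replicate 1, 3 or 4 of siAPC CB or replicate 1 or 2 of siAPC Ps left out (log2 ratios of -0.15 to -0.21) and with the trends removed (-0.05). Mitochondrial ribosomal proteins gave a similar picture, with 63 of 77 higher in Ps, 0 in CB and a median of 0.43 (pairs 0.40 to 0.46), led by Mrpl42 (1.58, SE 0.10, adjusted p = 3.27e-10) and Mrps18c (1.24, SE 0.09, adjusted p = 1.31e-09). With GC and length trends removed the median was 0.20, Mrpl42 stood at 1.29 and Mrps18c at 0.28.

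Of 11 listed mRNAs of the mitochondrial genome, 8 were higher in Ps and 2 in CB, with a median of 1.5 and a wide range over pairs, 1.03 to 1.92. The RNA of mt-Co3 had 3.37 (SE 0.39, adjusted p = 6.47e-07) but 14 reads in its lowest CB library, and 99.9% of its 50-base windows occur in transcripts of other genes. The abundant mt-Co1 stood at 13.21, 13.22, 13.26 and 13.25 in siAPC CB and at 14.08, 13.98, 13.90 and 13.69 in siAPC Ps, a log2 ratio of 0.68 (SE 0.14, adjusted p = 0.000427), with 51.1% of its windows shared. It moved to -0.19 with GC and length trends removed, and the class to 0.28. On the CB side were mt-Nd5 (-0.54, SE 0.13, adjusted p = 0.00137) and mt-Nd6, the mRNA of the light strand (-0.79, SE 0.21, adjusted p = 0.00293). With the trends removed they stood at -1.47 and -2.64. In siControl their ratios were -0.20 and 0.01, and the differences of -0.34 and -0.80 did not pass (adjusted p = 0.981 each by limma). Over the class 11 of 11 differences were below 0, 3 at an unadjusted p below 0.05 and 0 after adjustment. Unlike the respiratory chain, the 36 mitochondrial carriers (Slc25 genes) had a median of -0.01, with 9 higher in Ps, led by the ADP/ATP carrier Slc25a4 (0.69, SE 0.06, adjusted p = 6.21e-09), and 11 higher in CB, led by the iron carrier Slc25a37 (-0.85, SE 0.09, adjusted p = 1.28e-07).

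RNAs of the actin cytoskeleton that drives protrusion were mostly higher in Ps, by modest amounts. In the Arp2/3 complex, which branches actin filaments, 8 of 10 members were higher in Ps and 0 were Ps-enriched, with a median log2 ratio of 0.53 (pairs 0.41 to 0.60), or 0.19 with GC and length trends removed. Actr2 (0.63 ± 0.15 SE), Arpc1b (0.58 ± 0.07) and Arpc5 (0.55 ± 0.07) led it. Of 26 actins and regulators of actin monomers 16 were higher in Ps and 5 in CB (median 0.31, 0.15 when scaled to total reads and 0.11 under quantile normalization). Tmsb4x, the actin monomer binder thymosin beta 4 (chrX:167207093-167209315, minus strand), stood at 6.92, 6.96, 6.70 and 6.93 in siAPC CB and at 8.49, 8.64, 8.36 and 8.45 in siAPC Ps, a log2 ratio of 1.61 (SE 0.10, adjusted p = 4.09e-10). Tmsb10 (1.26 ± 0.06) and the capping protein Capza2 (1.11 ± 0.11) were also Ps-enriched, while the cofilin phosphatase Ssh1 was lower in Ps (-0.68 ± 0.08). With GC and length trends removed Tmsb4x stood at 0.88, Tmsb10 at 0.85, Capza2 at 0.41 and Ssh1 at -0.25. Of 18 genes of nonmuscle myosin II and tropomyosins 15 were higher in Ps, with Cald1, caldesmon, at 1.25 (SE 0.18, adjusted p = 8.24e-06) and the light chain Myl6b at 1.16 (SE 0.11, adjusted p = 3.11e-08). The heavy chain Myh9 was the member on the CB side (-0.33, SE 0.09, adjusted p = 0.00313), and it reversed to 0.25 with GC and length trends removed.

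Microtubule genes were divided. Of 57 motors and dynactin subunits 25 were higher in Ps and 12 in CB (median 0.27, 0.12 when scaled to total reads and 0.16 with GC and length trends removed). Kif5b, the heavy chain of kinesin-1, reached 1.59 (SE 0.22, adjusted p = 5.49e-06) and Dynll2, a dynein light chain, reached 1.53 (SE 0.08, adjusted p = 4.32e-11), whereas Kif13b, another kinesin, was CB-enriched at -1.31 (SE 0.15, adjusted p = 5.5e-07). Of 14 tubulins 1 passed in Ps and 4 in CB, among them Tubb4b (-0.35 ± 0.08 SE) and the nucleating gamma tubulin Tubg1 (-0.34 ± 0.09). Of 28 plus-end and tyrosination factors 9 were higher in Ps, led by Map1b (0.97 ± 0.16) and Ckap5 (0.83 ± 0.18), and 4 in CB, with Ttll4 lowest (-0.69 ± 0.11). Their median of 0.16 went to 0 under scaling to total reads and to 0.37 with GC and length trends removed. Of 41 RNA-binding proteins known from transport granules 23 were higher in Ps and 9 in CB, with Fxr1, a relative of the fragile X protein, at 1.51 (SE 0.29, adjusted p = 0.000175), Ybx1 at 1.15 ± 0.08 SE, Unk at -0.89 ± 0.08 and Cpeb1 at -0.97 ± 0.11.

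Several housekeeping classes leaned to the Ps side. Of 14 subunits of the CCT chaperonin and prefoldin, which fold actin and tubulin, 12 were higher in Ps and 0 in CB (median 0.63), including Pfdn1 (1.16, SE 0.08, adjusted p = 1.34e-09) and Cct4 (0.93, SE 0.10, adjusted p = 1.73e-07). Of 45 proteasome subunits 33 were higher in Ps and 0 in CB (median 0.31), with Psmc6 at 1.52 (SE 0.19, adjusted p = 1.91e-06). Of 37 enzymes of glycolysis and the TCA cycle 20 were higher in Ps and 5 in CB (median 0.22). Sucla2 was highest (1.26 ± 0.15 SE) and Ogdh lowest (-0.31 ± 0.07). Removing GC and length trends lowered these class medians to 0.30, 0.09 and 0.18. With the trends removed Psmc6 stood at 0.69, Sucla2 at 0.83 and Ogdh at 0.0011, where its call was lost. Scaled to total reads, the proteasome median was 0.16 and that of glycolysis and the TCA cycle 0.06.

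**Figure D4:**
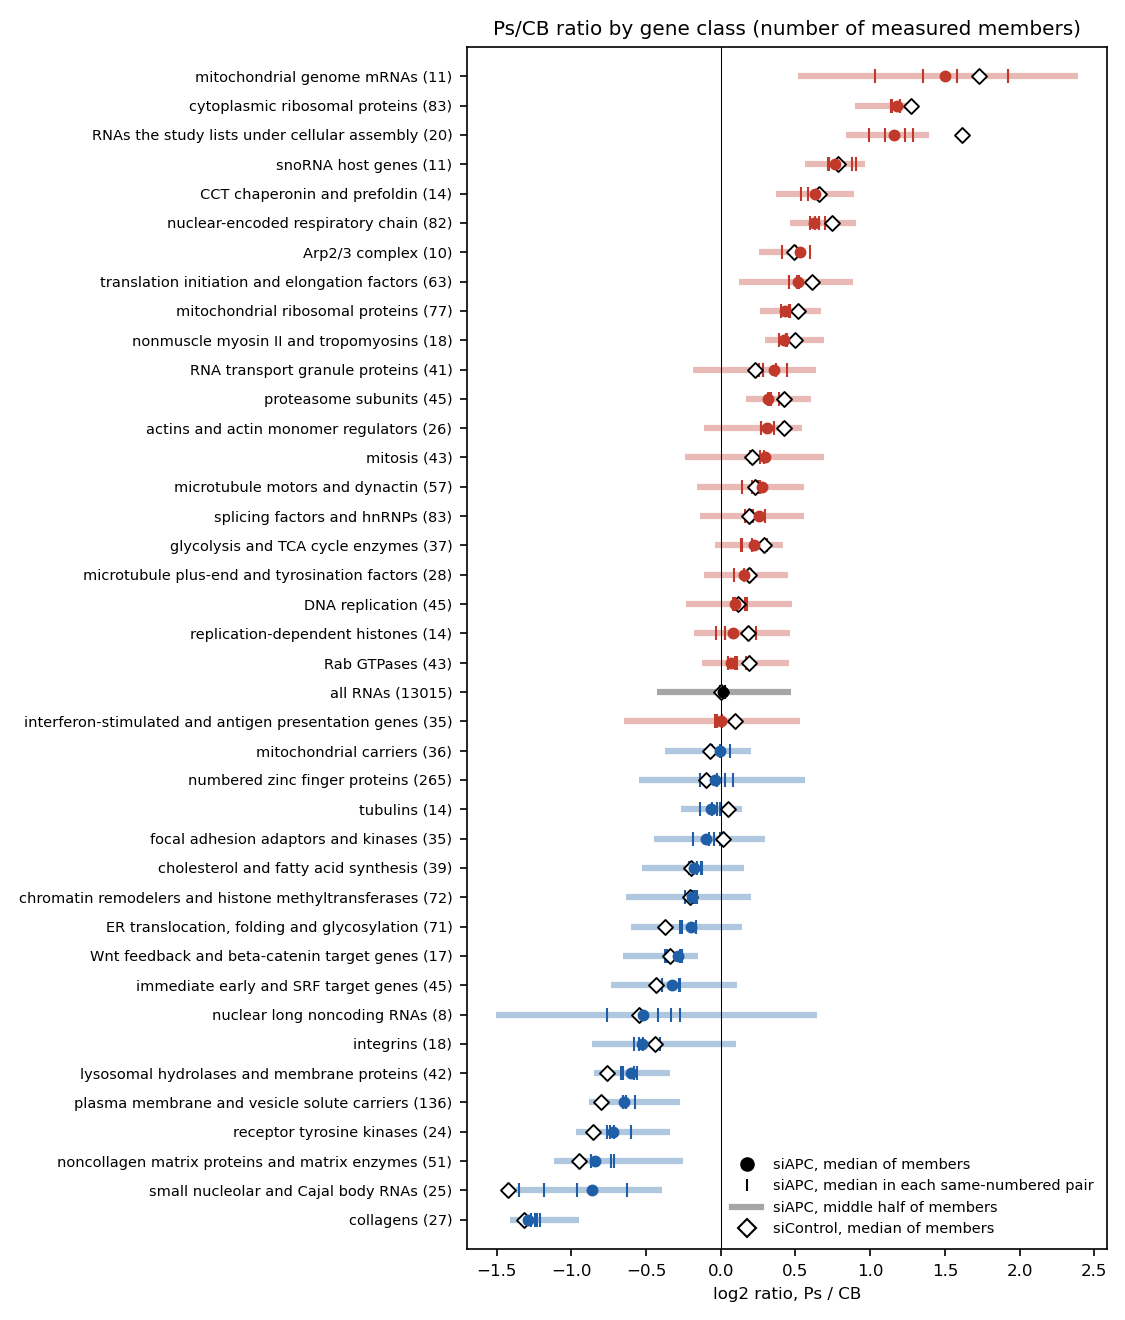
Median log2 ratio of Ps to CB of each gene class in siAPC (filled points), with the medians of the 4 same-numbered pairs of libraries (ticks), the middle of the members from the first to the third quartile (bars) and the siControl median (open diamonds). R-proteins, with a median of 1.18, mitochondrial genome mRNAs and the RNAs listed by the study lie at the top, and collagens, at -1.29, lie at the bottom.

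Several classes of secreted and membrane proteins lay on the CB side. Collagens, the fibers and sheets of the extracellular matrix, lay on that side almost as a whole class. Of 27 members 25 were higher in CB, 20 were CB-enriched and 0 were higher in Ps. Their median log2 ratio was -1.29, with pairs from -1.27 to -1.21, against -1.31 in siControl. Col5a3 (chr9:20770050-20815067, minus strand) stood at 5.42, 5.18, 5.42 and 5.06 in siAPC CB and at 3.77, 3.60, 3.49 and 3.11 in siAPC Ps, a log2 ratio of -1.77 (SE 0.12, adjusted p = 9.64e-10), while Col11a1 had -0.57 (SE 0.20, adjusted p = 0.0169), a call lost with replicate 2 of siAPC CB (-0.48) or replicate 4 of siAPC Ps (-0.50) left out and with GC and length trends removed (-0.36). Of 51 other matrix proteins and matrix enzymes 38 were higher in CB and 3 in Ps, with a median of -0.84. Agrn, agrin, stood at 6.90, 6.80, 6.90 and 6.80 in CB and at 5.52, 5.23, 5.37 and 5.17 in Ps (-1.53, SE 0.07, adjusted p = 4.12e-11). Hspg2, perlecan, stood at 9.81, 9.70, 9.97 and 9.79 in CB and at 8.28, 7.98, 8.58 and 8.43 in Ps (-1.5, SE 0.15, adjusted p = 1.16e-07), and Lamb2, a laminin chain, had -1.37 (SE 0.12, adjusted p = 1.15e-08). The proteoglycan Bgn, biglycan, was higher in Ps (0.41, SE 0.09, adjusted p = 0.000497), but reversed to -0.25 under quantile normalization. With GC and length trends removed the medians were -0.75 for collagens and -0.55 for the other matrix genes.

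Receptors and transporters of the cell surface followed. Of 24 receptor tyrosine kinases 17 were higher in CB and 2 in Ps (median -0.72, pairs -0.76 to -0.60, and -0.36 with GC and length trends removed). Fgfr1, a receptor of fibroblast growth factors (chr8:25513654-25575718, plus strand), stood at 8.07, 7.88, 8.01 and 7.96 in siAPC CB and at 6.86, 6.57, 6.83 and 6.81 in siAPC Ps, a log2 ratio of -1.21 (SE 0.09, adjusted p = 1.58e-09), and Ror2, a Wnt5a receptor, had -1.24 (SE 0.12, adjusted p = 7.95e-08). The collagen receptors of the discoidin domain family were split. Ddr1 was CB-enriched at -1.14 (SE 0.08, adjusted p = 1.43e-09), and Ddr2 stood at 6.54, 6.76, 6.62 and 6.46 in CB and at 7.51, 7.78, 7.5 and 7.31 in Ps, higher in Ps by 0.93. Of 136 genes with names of solute carriers of the plasma membrane and vesicles 95 were higher in CB, 20 of them CB-enriched, and 3 in Ps (median -0.65). Slc27a3 had -1.47 (SE 0.20, adjusted p = 3.53e-06), Slc12a9 had -1.35 (SE 0.12, adjusted p = 2.58e-08), and the zinc transporter Slc30a4 was among the exceptions at 0.83 (SE 0.21, adjusted p = 0.00243). Another of the 3 was Slc4a1ap (0.39), looked at after its value was seen, which encodes an adaptor protein and is a carrier by name only. In siControl the carriers had a median of -0.80, and with GC and length trends removed the siAPC median was -0.43. Of the 136 carriers 15 had a higher ratio in siAPC at an unadjusted p below 0.05, 0 a lower one, and none passed after adjustment.

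Of 42 lysosomal hydrolases and membrane proteins 35 were higher in CB and 1 in Ps (median -0.60). Gaa, acid alpha-glucosidase, had -1.23 (SE 0.08, adjusted p = 1.03e-09) and Man2b1, a lysosomal mannosidase, had -1.23 (SE 0.08, adjusted p = 4.37e-10), and the cholesterol carrier Npc2 was the 1 member higher in Ps (0.38, SE 0.09, adjusted p = 0.00133). Of 18 integrins, the receptors that hold cells to matrix, 10 were higher in CB and 1 in Ps (median -0.53, and -0.12 with GC and length trends removed). Itga5, of the fibronectin receptor, stood at 9.48, 9.42, 9.51 and 9.38 in siAPC CB and at 8.35, 8.16, 8.28 and 8.27 in siAPC Ps (-1.19, SE 0.08, adjusted p = 6.76e-10), Itga3, of a laminin receptor, had -1.02 (SE 0.08, adjusted p = 3.29e-09), and Itgal, the member in Ps, had 0.69 (SE 0.23, adjusted p = 0.0145) at 18 or more reads a library, a call lost without replicate 1 or 3 of siAPC Ps (0.59 each), under quantile normalization (0.51) and when scaled to total reads (0.54). The adaptors that bind integrins from inside were divided, with 13 of 35 focal adhesion genes higher in Ps and 14 in CB. Kank2 and Lims1 (0.85 ± 0.14 SE) were on the Ps side, Crkl (-1.32 ± 0.14) and talin, Tln1 (-0.81 ± 0.10), on the CB side. The class median of -0.10 turned to 0.12 with GC and length trends removed. With them removed Tln1 stood at -0.22, Lims1 at 0.49, Itga3 at -0.46, Itga5 at -0.67, Gaa at -0.74 and Itgal at 1.11.

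Genes of the ER were mixed. Of 71 genes for translocation, folding and glycosylation 36 were higher in CB and 13 in Ps (median -0.20, and -0.36 when scaled to total reads). Those on the CB side were led by enzymes and chaperones of collagen and other secreted proteins, with -1.10 (SE 0.06, adjusted p = 1.01e-10) for the lysyl hydroxylase Plod1, -1.07 (SE 0.06, adjusted p = 1.68e-10) for the prolyl hydroxylase Lepre1 and -1.0 (SE 0.07, adjusted p = 7.11e-10) for the chaperone Hyou1. Those on the Ps side were led by parts of the translocation channel and of the oligosaccharyltransferase. Sec61g, the gamma subunit of the Sec61 channel, stood at 7.33, 7.43, 7.32 and 7.36 in siAPC CB and at 8.50, 8.72, 8.51 and 8.59 in siAPC Ps (1.22, SE 0.08, adjusted p = 7.88e-10), Sec62 had 1.07 (SE 0.27, adjusted p = 0.00219), and Ost4 had 0.77 (SE 0.07, adjusted p = 5.37e-08). Of 39 genes of cholesterol and fatty acid synthesis 18 were higher in CB, among them the regulator Srebf1 (-1.31, SE 0.09, adjusted p = 1.49e-09) and the enzyme Dhcr7 (-0.93 ± 0.13 SE), and 7 in Ps, led by Scd1 (1.17, SE 0.07, adjusted p = 3.17e-10) and Acsl4 (0.83 ± 0.21). With GC and length trends removed Ost4 stood at 0.35, Sec61g at 0.79, Acsl4 at 0.42, Srebf1 at -0.78, Lepre1 at -0.68 and Hyou1 at -0.64.

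Nuclear RNAs and the mRNAs of nuclear proteins did not lie on 1 side as a class. Of 8 long noncoding RNAs known from the nucleus 4 were higher in CB and 3 in Ps. Besides Malat1, the CB side held Kcnq1ot1 (-1.51, SE 0.34, adjusted p = 0.000751) and Firre (-1.5, SE 0.27, adjusted p = 8.13e-05), and the Ps side held Pvt1 (0.64, SE 0.13, adjusted p = 0.000246). Of 25 small nucleolar and Cajal body RNAs 11 were higher in CB and 2 in Ps, with a median of -0.86 against -1.42 in siControl, and 1 of them, Snord104 (0.83, SE 0.11, adjusted p = 4.06e-06), had a mean log2 CPM of at least 1. That 1 member lay on the Ps side, and with GC and length trends removed it stood at -0.16 and the class median at -2.0. Of 72 chromatin remodelers and histone methyltransferases 32 were higher in CB and 12 in Ps, a median of -0.19 that turned to 0.04 with GC and length trends removed. Kmt2d (chr15:98831669-98871204, minus strand) stood at 6.85, 6.68, 7.01 and 6.84 in siAPC CB and at 5.45, 5.40, 5.40 and 5.33 in siAPC Ps (-1.45, SE 0.07, adjusted p = 4.87e-11), Kmt2b had -1.16 (SE 0.09, adjusted p = 2.75e-09), and Smarca5, an ATPase that slides nucleosomes, went the other way (1.29, SE 0.33, adjusted p = 0.00224). With the trends removed Kmt2d stood at -0.81 and Kmt2b at -0.53. Of 83 splicing factors 37 were higher in Ps, such as Hnrnpu (1.28 ± 0.16 SE) and Snrpg (1.28 ± 0.09), and 18 in CB, such as Srrm2 (-1.18 ± 0.06). Their median of 0.26 was 0.11 with the trends removed and 0.10 when scaled to total reads.

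The remaining classes had medians between -0.33 and 0.29. Of 265 numbered zinc finger genes 57 were higher in Ps and 89 in CB (median -0.04, and -0.27 for members with a mean of at least 1), with Zfp931 at 1.66 ± 0.19 SE, a call lost with GC and length trends removed (0.40), and Zfp146 at -1.61 ± 0.36. Of 43 Rab GTPases 17 were higher in Ps and 6 in CB (median 0.07, and -0.09 when scaled to total reads), with Rab13 at 2.15, Rab8b at 0.90 ± 0.15 and Rab36 at -0.60 ± 0.09. The other 2 enriched members, Rab27b (1.06, in Ps) and Rab42 (-1.39, in CB), had mean log2 CPM below 0 in siAPC CB. Genes of DNA replication (16 of 45 higher in Ps, 3 in CB, median 0.09, and -0.06 when scaled to total reads) included Pold1, a polymerase subunit, on the CB side (-0.61 ± 0.14), a call lost with GC and length trends removed (-0.13). Mitotic genes (15 of 43 higher in Ps, 9 in CB, median 0.29, 0.14 when scaled to total reads and 0.07 with GC and length trends removed) were divided between Smc4, a condensin (1.44 ± 0.36), on the Ps side and the separase Espl1 (-1.19 ± 0.20) and the kinase Plk1 (-0.89 ± 0.14) on the CB side. Of 14 histone genes 1 passed, in Ps. Of 35 interferon and antigen presentation genes 12 were higher in Ps, led by Ifi204 (2.10 ± 0.43, with 3 reads in its lowest CB library), and 11 in CB, led by the peptide transporters Tap2 (-1.2 ± 0.09) and Tap1 (-1.18 ± 0.08). Immediate early and SRF targets leaned to CB (19 of 45 against 2 in Ps, median -0.33, and -0.21 without replicate 2 of siAPC Ps), with Zfp36l2 at -1.26 (SE 0.12, adjusted p = 3.48e-08) and Csrnp1 at -1.13 (SE 0.20, adjusted p = 9.75e-05).

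Apc is also known as a brake on Wnt signaling, so Wnt feedback and beta-catenin targets were read by fraction. Of 17 measured members 9 were higher in CB, 1 in Ps, and 0 were enriched in either (median -0.29, and -0.34 in siControl). The siAPC median was -0.17 with GC and length trends removed, -0.50 with quantile normalization and -0.44 when scaled to total reads. The LRP6 inhibitor Kremen1 had -0.92 (SE 0.11, adjusted p = 1.11e-06), the receptor ligase Znrf3 had -0.80 (SE 0.12, adjusted p = 1.26e-05) and the transcription factor Tcf7l2 had -0.71 (SE 0.09, adjusted p = 2.02e-06). The 1 member in Ps was Ccnd1, cyclin D1, at 7.23, 7.21, 7.61 and 7.87 in siAPC CB and 7.59, 7.61, 8.21 and 8.46 in siAPC Ps. It was higher in Ps in all 4 same-numbered pairs, but its groups overlapped (0.49, SE 0.17, adjusted p = 0.0193), and the call was lost with replicate 1 or 2 of siAPC CB or replicate 3 or 4 of siAPC Ps left out (0.33 to 0.41) and when scaled to total reads (0.34).

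The calls in siAPC were then set beside those in siControl, where the Ps-enriched RNAs numbered 936 and the CB-enriched ones 888 (7.19% and 6.82% of all). The lists shared 678 Ps-enriched RNAs, which is 67.9% of the siAPC list and 72.4% of the siControl list, and 511 CB-enriched RNAs, 77.8% of the siAPC list and 57.5% of the siControl list. No RNA was enriched in opposite fractions. The 320 that were Ps-enriched in siAPC alone had a median log2 ratio of 1.17 in siAPC and 0.79 in siControl, 315 of them had the same sign in both (11686 of 13015 over all RNAs), and 163 had a mean log2 CPM below 1 (2665 over all RNAs). Of these 320 only 24 had a higher ratio in siAPC at an unadjusted interaction p below 0.05, and 0 at an adjusted p. The 146 that were CB-enriched in siAPC alone had medians of -1.14 and -0.81, and 13 of them had a lower ratio in siAPC at an unadjusted p. Of the 258 RNAs Ps-enriched in siControl alone, which had a median of 0.87 in siAPC, 34 had a lower ratio in siAPC at an unadjusted p, and of the 377 CB-enriched in siControl alone, at -0.85 in siAPC, 71 had a higher one. Since these groups were chosen by the ratios themselves, the counts are descriptions. No RNA that was enriched in siAPC alone, in either fraction, passed the adjusted test of the difference.

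The enriched RNAs also shared properties that the rule did not use. The 12871 RNAs matched to the annotation were put into 4 bins of nearly equal number. The bin with the lowest GC content of the transcript, up to 45.3%, held 514 Ps-enriched and 38 CB-enriched RNAs, and the bin with the highest, above 54.7%, held 99 and 348. The median log2 ratio went from 0.46 in the lowest bin through 0.06 and -0.16 to -0.35 in the highest, and in siControl from 0.33 to -0.29. By length, the bin of transcripts up to 1913 bases held 554 Ps-enriched and 99 CB-enriched RNAs, and the longest bin held 144 and 256. The classes differ in these properties, with a median transcript of 1106 bases for r-proteins and 6048 bases and 56.7% GC for collagens. A lowess correction for both properties left 364 Ps-enriched and 383 CB-enriched RNAs of 12871. Of 142 genes chosen by the rule for named genes, it moved the log2 ratio of 68 toward or past 0 by more than 1.5 times and that of 7 away from 0 by as much, and 14 lost their call or reversed. The part of GC content and length in the class results was not tested beyond this correction.

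**Figure D5:**
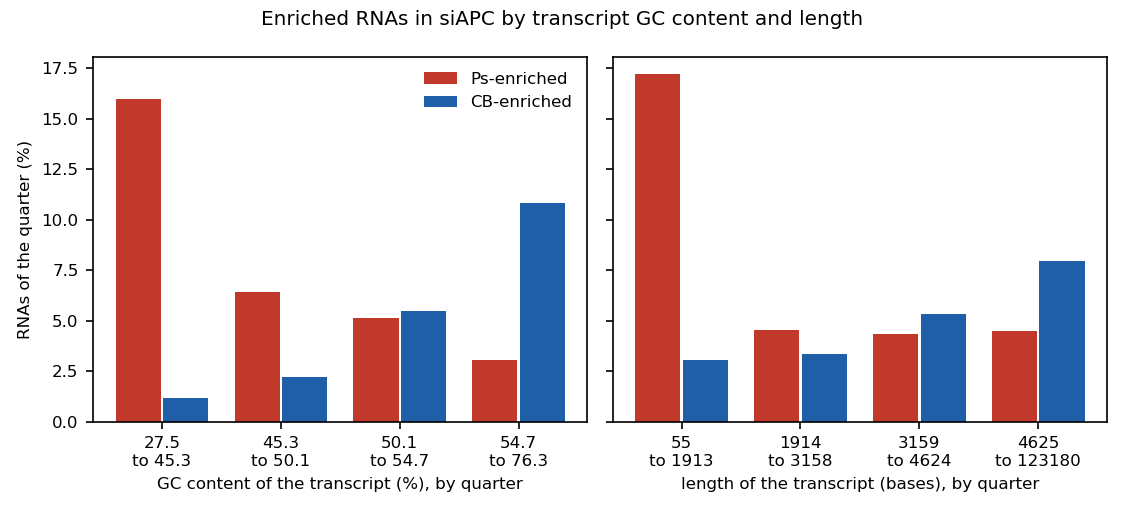
Share of RNAs (y axis, %) that were Ps-enriched (red) or CB-enriched (blue) in siAPC, in 4 bins of the matched RNAs by GC content of the transcript (left) and by its length in bases (right). The Ps-enriched share is 16% in the bin of lowest GC and 3.08% in the highest, and the CB-enriched share is 1.18% and 10.8%.

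Gene type added to this. Processed pseudogenes, intronless copies of mRNAs, made up 261 of the 998 Ps-enriched RNAs, out of 547 listed (47.7%), with a median log2 ratio of 1.06, and 10 were CB-enriched. Of 101 pseudogenes with the name of an r-protein 70 were Ps-enriched and 1 was CB-enriched (median 1.37), beside 1.18 for the r-protein genes. Reads from an r-protein mRNA can align to such copies, so these counts are uncertain. Genes named above that share 50-base windows with transcripts of other genes are uncertain for the same reason, among them Tubb4b (50.9% of its windows), Tmsb10 (43.5%), Npm1 (40.9%), Smarca5 (35.3%), Ifi204 (30.2%), Rpl21 (26.2%) and Ybx1 (25.1%). Predicted genes and pseudogenes, by name or annotated type, numbered 1211 of 13015 RNAs in all (9.3%). They made up 365 of the 998 Ps-enriched RNAs (36.6%), against 74 of the 657 CB-enriched (11.3%). Protein-coding genes numbered 11482, of which 619 (5.39%) were Ps-enriched and 557 (4.85%) were CB-enriched. Long intergenic noncoding RNAs were Ps-enriched in 24 of 210 cases and CB-enriched in 8, and annotated microRNA genes in 2 and 11 of 22.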

How the data were processed

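RNA of CB and Ps fractions of NIH/3T3 cells was sequenced in 16 libraries, 4 for each fraction and siRNA. Per the submitters' processing notes and the study's methods, reads were demultiplexed with bcl2fastq 1.8.4, aligned with STAR 2.4.2a to mm10, counted per gene and transformed with limma 3.26.1. Whether counting used the strand is not given in the sources used here, so a gene and an overlapping antisense gene cannot be told apart. The authors deposited log2 CPM values from limma-voom, one column a library, with 0.5 reads added and libraries scaled. Whole reads were recovered from them (100% of values within 0.05 of a whole number) for depth and for alternatives.

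The deposited values were tested with limma 3.58.1 (R 4.3.3, eBayes with a trend) in 1 fit of all 16 libraries with 4 group means and no block, and p-values were adjusted over all 13015 RNAs by Benjamini-Hochberg. Ratios are siAPC Ps minus siAPC CB on the log2 scale, and because of the added reads they understate the change of low RNAs. The fold rule follows the study, which used limma-voom with a moderated test and names no block. Here the values were unweighted, and voom weights were an alternative. Replicate numbers were taken to pair the siAPC libraries, since all 4 same-numbered CB and Ps libraries deviated together (correlations of 0.448, 0.617, 0.529 and 0.416 over 10292 genes), although CB 3 with Ps 4 reached 0.572. In siControl the same-numbered values were 0.337, -0.121, -0.121 and 0.432, so its numbers were not taken as pairs in the descriptions. The replicate block, an alternative fit, nonetheless paired the same-numbered CB and Ps libraries of both siRNAs. Of the 13015 RNAs, 12871 matched a GENCODE annotation of GRCm38 (12426 by symbol and 445 by an older symbol), which gave coordinates, length and GC content. Start sequences came from RefSeq GRCm38.p6.

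The members and the 39 gene lists were chosen with earlier results of these data known, and no set test was run. Named genes were Apc and those the study names, the 10 highest and 10 lowest ratios at a mean log2 CPM of at least 3 with groups that did not overlap (predicted genes, pseudogenes, snoRNAs and microRNAs left out), up to 3 called members at each end of a class, and the 5 most positive and 5 most negative differences between siRNAs at an unadjusted p below 0.01 and a mean of at least 1. Gab2, Rps27 and the r-protein genes whose starts are shown were chosen after their values were seen. Alternatives were other scalings, weights and filters, a correction for GC content and length, the replicate block, the 8 siAPC libraries alone, other fold rules and each library left out. Leaving out the 4 libraries with a strong negative GC trend (replicate 2 of siAPC CB, siAPC Ps and siControl Ps, and replicate 3 of siControl CB) was added with the data in view, and other libraries had positive trends of up to 0.536. The procedure was tested on simulated data. Values of some members of the gene lists are not reported here. Depth limits low RNAs, and shares of reads cover counting error only.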

Additional observations from a re-analysis of the deposited data

Results flagged for a closer look

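Single libraries that stood apart from the other 3 of their group (Dixon's test at the 95% level) were found in 12 of 364 groups of 4, where chance gives about 1 in 20. Replicate 2 of siAPC Ps held 5 of them (GC correlation -0.645). In it Kif13b stood at 2.56 log2 CPM (others 3.01 to 3.10), Ogdh at 7.03 (7.14 to 7.15) and PCDHGB6 at 5.59 (6.08 to 6.15), below the rest, while Smc4 at 3.33 (2.44 to 2.59) and Uqcrb at 6.68 (6.26 to 6.31) stood above. In replicate 2 of siAPC CB, Psmc6 stood at 4.19 (3.45 to 3.57) and Zfp931 at 1.05 (0.79 to 0.83). Tmsb4x was low in replicate 3 of siAPC CB at 6.70 (6.92 to 6.96), and Pkp4 was low in replicate 4 of siAPC CB at 4.41 (4.59 to 4.62). In siControl Ps, 2900052L18Rik stood at -0.07 in replicate 4 on 13 reads (0.75 to 0.85). Among class medians, r-proteins stood at 1.2 in pair 2 of siAPC (1.14 to 1.15), and mitochondrial ribosomal proteins at 0.40 in pair 1 (0.45 to 0.46).

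The ratio of Ps to CB differed between the siRNAs, by the interaction test of limma with adjustment over all RNAs, for Cyb5r3 by -0.78, for Scd1 by -0.64 and for 5730409E04Rik by -0.63 on the log2 scale, each lower in siAPC. All 3 were Ps-enriched in siAPC. The calls were lost in 13, 12 and 13 of 16 fits with a library left out, and with the replicate block the adjusted p was 0.107, 0.034 and 0.107.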

How the results depend on the processing

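Of the counts, those of RNAs higher in either fraction by the adjusted p stayed within 1.5 times throughout, but scaled to total reads they were 2793 in Ps and 5114 in CB, against 3877 and 4024. Ps-enriched and CB-enriched RNAs numbered 364 and 383 after the lowess correction, 576 and 422 at a mean of at least 1, and 2318 and 2134 at a fold of 1.5. When scaled to total reads they numbered 697 and 1105. With a library left out Ps-enriched RNAs ran from 824 to 1125 and CB-enriched ones from 608 to 713. RNAs with a lower ratio in siAPC than in siControl numbered 9 after lowess, 6 with quantile normalization (where 2 were higher), 1 with the replicate block, 0 when scaled to total reads also 0 once the 4 libraries of strong negative GC trend were left out, and 0 to 7 with a library left out (0 to 1 higher). The block changed no other call named in the text.

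Reversed by lowess were Arpc3 (-0.0366), Myh9 (0.25), Ogdh (0.0011), Snhg6 (-0.18), Snord104 (-0.16), mt-Co1 (-0.19), and the medians of chromatin (0.0379) and focal adhesion genes (0.12). Quantile normalization reversed Bgn (-0.25) and the median of all RNAs (-0.0105). Scaling to total reads reversed the medians of Rab GTPases (-0.0857), DNA replication (-0.0622) and all RNAs (-0.14), and a mean of at least 1 those of snoRNAs (0.83, 1 member) and all RNAs (-0.0256). The cause was not tested. Of the other log2 ratios of named genes under alternatives 2379 kept their direction and side of the threshold and 35 lost the call. Depth limits RNAs near the floor of 3 reads.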
